A study of Sus scrofa with 30 samples.

Results

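The mitochondrial ribosomal protein genes of the pig were taken as all genes of the deposited table whose pig NCBI symbol begins with MRPL or MRPS followed by a number. This gave 77 of the 13103 genes in the table of all embryos, and all 77 were also in the tables of each single day. They were split into 50 large and 27 small subunit genes. All MRPL genes, MRPS18A and MRPS30 were counted as large, and the other MRPS genes as small. All 77 genes of this name pattern in the RefSeq gene table of Sscrofa11.1 were present, so the authors' filter on low values removed none. RNA-Seq of 30 single whole embryos was analysed, with 5 females and 5 males per day (Days 8, 10 and 12 of pregnancy). The embryos were flushed from the uteri of German Landrace × Pietrain gilts, 4 gilts for each day. The cycles of all gilts had been synchronised with altrenogest, followed by PMSG and then hCG. All were inseminated with sperm of a single Pietrain boar, and no treatments were compared. All embryos therefore share a sire, and since 10 embryos of a day came from 4 gilts, some were littermates. Females and males of a stage were chosen so that both sexes came from at least one common sow, but the gilt of each embryo was not given. The p-values accordingly measure the spread between these embryos. A whole embryo holds trophectoderm, epiblast and hypoblast together, so that fewer cells of a type and less RNA per cell cannot be told apart.

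The mitochondrial ribosome translates the few proteins encoded by mitochondrial DNA, which are core subunits of the respiratory chain and of ATP synthase. Its own proteins are all encoded in the nucleus, made on cytosolic ribosomes and imported into the organelle, where they assemble on rRNA transcribed from mitochondrial DNA. Many have a bacterial counterpart and carry its number, whereas others were added to the ribosome in the mitochondrial lineage. Between Days 8 and 12 the pig blastocyst grows, its trophectoderm begins to elongate and the epiblast forms the embryonic disc.

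Day 8 embryos had 14882265 to 33799980 counts, Day 10 embryos 19773328 to 32476637 and Day 12 embryos 6068212 to 34002508. All members were well above the floor of 3 counts, with a lowest value of 70 counts in any embryo. Levels are CPM (counts normalised to the sequencing depth of the embryo, with TMM factors). Female embryos d12_f_245 and d12_f_271 of Day 12 stood apart from the other embryos of their day over all genes, with a mean distance of 139 and 120 in log2 CPM, against at most 108 for the other 8. Embryo d12_f_245 also had the smallest library, 6068212 counts, whereas embryo d12_f_271 had 16904603. Summed trophectoderm markers were between 20600 and 25300 CPM on Day 8, between 32900 and 50200 CPM on Day 10 and between 9310 and 27900 CPM on Day 12, where embryos d12_f_245 and d12_f_271 were at 19600 and 27900 CPM and the other 8 at 9310 to 19400 CPM. The summed hypoblast markers were at 298 to 456, 161 to 221 and 171 to 1460 CPM on the 3 days, and epiblast markers at 621 to 770, 866 to 1830 and 617 to 1200 CPM. All 8 trophectoderm, 8 epiblast and 6 hypoblast markers were present in the table. The 2 of 6 blood cell markers and the 3 of 6 endometrium markers present summed to at most 10.6 CPM each. The 3 mesoderm markers present summed to at most 8.06 CPM, and MIXL1 and TBX4 of that list were absent. The part of these cell types in the results below was not tested.

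As a group, the mitochondrial ribosomal protein genes had their highest median sum on Day 8. Their summed level per embryo was between 5614 and 6809 CPM on Day 8, with a median of 6289. On Day 10 it was between 4477 and 5876 CPM with a median of 5456. On Day 12 it was between 3872 and 6994 CPM with a median of 4256. The 2 highest sums of Day 12, 6466 and 6994 CPM, belonged to embryos d12_f_245 and d12_f_271, and the other 8 embryos had 3872 to 4794 CPM, below every embryo of Day 8. These genes took 0.652% ± 0.0316 (SD, n = 10) of all counts on Day 8, 0.486% ± 0.0686 on Day 10 and 0.502% ± 0.118 on Day 12, or 0.449% ± 0.0431 on Day 12 without embryos d12_f_245 and d12_f_271 (n = 8). The large subunit genes summed to 4200 ± 265 CPM on Day 8, 3580 ± 323 on Day 10 and 3250 ± 779 on Day 12 (SD, n = 10). The ratio of the large to the small subunit sum within an embryo was 2.01 ± 0.0313 on Day 8, 2.11 ± 0.0418 on Day 10 and 2.14 ± 0.107 on Day 12 (SD, n = 10). Without embryos d12_f_245 and d12_f_271 the Day 12 values were 2900 ± 199 CPM and a ratio of 2.1 ± 0.0652 (SD, n = 8).

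**Figure D1:**
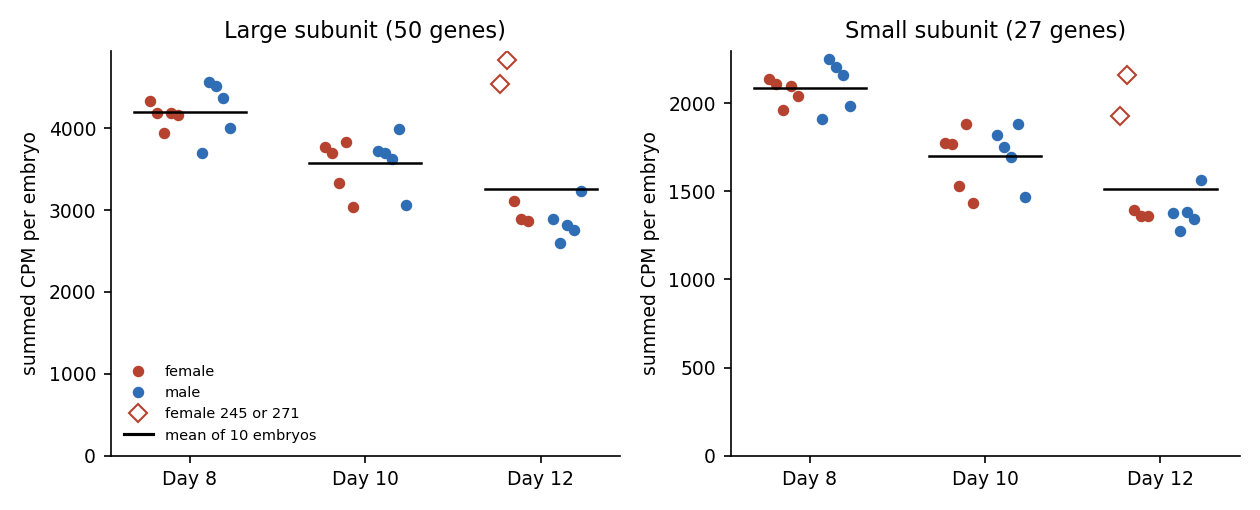
Summed CPM of the 50 large subunit genes (left) and the 27 small subunit genes (right) in each embryo, by day (x axis). Filled points are single female or male embryos, open diamonds are female embryos d12_f_245 and d12_f_271, and lines are means of 10 embryos. For both subunits the 8 other Day 12 embryos lie below all Day 8 embryos, and the 2 diamonds lie above all other Day 12 embryos.

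From Day 8 to Day 10, 38 of the 77 genes fell and 3 rose at an FDR under 0.05 (edgeR quasi-likelihood test, Benjamini-Hochberg adjustment), against 26.7% of all 13103 genes that fell and 29.4% that rose. The share of members that fell was 49.4%. The median log2 fold change of the members was -0.26, beside 0.03 for all genes. In 15 members (19.5%) every Day 10 embryo was below every Day 8 embryo, which held for 11.0% of all genes. None was a DEG (log2 fold change past 1 in size, FDR below 0.001), whereas 4.2% of all genes were DEG that fell. With scaling by library size alone, which moved the median of all genes from 0.03 to -0.15, 50 members fell and 1 rose, beside 36.8% and 21.3% of all genes, and the member median was -0.43.

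MRPS36 and MRPL47 had the largest falls of this step. MRPS36 was first assigned to the small subunit and has since been placed in the 2-oxoglutarate dehydrogenase complex of the citric acid cycle. It had 96.5 to 140 CPM on Day 8 (median 118) and 37.9 to 95.4 CPM on Day 10 (median 57.3). Its groups did not overlap, with a log2 fold change of -0.94 ± 0.13 (SE; adjusted p = 2.63e-07, edgeR). MRPL47, a protein near the exit of the peptide tunnel, had 80.2 to 94.8 CPM on Day 8 (median 88.0) and 34.3 to 62.0 CPM on Day 10 (median 44.4), again without overlap. Its log2 fold change was -0.92 ± 0.089 (adjusted p = 5.76e-10, edgeR).

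MRPS30 and MRPL32 of the large subunit fell nearly as far. MRPS30, despite its name a large subunit protein, had 86.1 to 101 CPM on Day 8 (median 94.6) and 37.8 to 65.9 CPM on Day 10 (median 53.2), with a log2 fold change of -0.89 ± 0.10 (adjusted p = 1.7e-08, edgeR). MRPL32, a counterpart of a bacterial protein that matures by cleavage in the organelle, had 68.3 to 90.7 CPM on Day 8 (median 77.8) and 27.8 to 62.1 CPM on Day 10 (median 46.7), a log2 fold change of -0.82 ± 0.12 (adjusted p = 1.26e-06, edgeR). In both genes every Day 10 embryo was below every Day 8 embryo.

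The 3 genes that rose were MRPL24, MRPL41 and MRPS28. MRPL24, a counterpart of a bacterial protein at the peptide exit tunnel, had 64.5 to 80.5 CPM on Day 8 (median 69.1) and 94.2 to 146 CPM on Day 10 (median 116). All its Day 10 embryos were above all its Day 8 embryos, with a log2 fold change of 0.70 ± 0.12 (adjusted p = 1.67e-05, edgeR). MRPL41 rose by 0.42 ± 0.14 (adjusted p = 0.0119, edgeR) and MRPS28 by 0.24 ± 0.068 (adjusted p = 0.00312, edgeR) on the log2 scale, both with overlapping groups.

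From Day 10 to Day 12, 35 of the 77 genes (45.5%) fell and 4 rose at an FDR under 0.05, against 27.1% of all genes that fell and 32.6% that rose. The median log2 fold change was -0.20 for the members and 0.04 for all genes. None was a DEG, where 8.39% of all genes were DEG that fell, and in 3 members (3.9%) every Day 12 embryo was below every Day 10 embryo, beside 8.2% of all genes. With embryos d12_f_245 and d12_f_271 left out, 52 members fell and 1 rose, the 35 among these 52, with a median of -0.29, and 9 members did not overlap (11.7%). Of all genes, 29.4% fell, 33.4% rose and 9.88% did not overlap with those embryos left out, so the share without overlap was near that of all genes. In male embryos alone 43 members fell and 0 rose, beside 21.5% and 25.9% of all genes. In female embryos alone 23 of the 77 members fell and 7 rose, beside 27.1% and 24.5% of all genes, so that the share that fell was near that of all genes. The count of this step also depended on scaling. By library size alone, which moved the median of all genes to 0.24, 13 members fell and 16 rose, beside 17.5% and 43.8% of all genes, with a member median of -0.01, which is again below that of all genes.

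MRPS18B had the largest fall of this step. It is one of 3 copies of a bacterial protein in mammals, with MRPS18C also in the small subunit and MRPS18A in the large. Its level was 58.8 to 76.2 CPM on Day 8 (median 68.1), 66.3 to 75.2 CPM on Day 10 (median 69.7) and 29.2 to 47.8 CPM on Day 12 (median 39.4). The Day 12 embryos were below all embryos of the earlier days, with a log2 fold change of -0.82 ± 0.067 from Day 10 to Day 12 (adjusted p = 4.85e-12, edgeR). MRPS18C had medians of 36.3, 27.9 and 21.3 CPM and fell in both steps, by 0.35 ± 0.11 (adjusted p = 0.00657, edgeR) and by 0.33 ± 0.11 (adjusted p = 0.0103, edgeR) on the log2 scale. MRPS18A had medians of 45.9, 38.1 and 37.6 CPM and passed the test in neither step, with log2 fold changes of -0.27 and 0.30 (adjusted p = 0.104 and 0.0684, edgeR), with 31.2 to 85.7 CPM on Day 12. Without embryos d12_f_245 and d12_f_271, at 85.7 and 76.2 CPM, MRPS18A had the same -0.27 from Day 8 to Day 10 (adjusted p = 0.00222, edgeR), since neither of these days lost an embryo, and fell by 0.26 from Day 8 to Day 12 (adjusted p = 0.00348, edgeR), where all embryos gave 0.03.

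MRPL35, MRPL54 and MRPL36 followed. MRPL35 fell by 0.65 ± 0.08 (adjusted p = 2.68e-08, edgeR) without overlap of the groups, MRPL54 by 0.62 ± 0.082 (adjusted p = 1.17e-07, edgeR), and MRPL36 by 0.62 ± 0.15 (adjusted p = 0.000745, edgeR). MRPL24, which had risen from Day 8 to Day 10, fell by 0.47 ± 0.12 (adjusted p = 0.00137, edgeR), to 52.6 to 147 CPM on Day 12 (median 73.8). MRPS28, which had also risen, fell by 0.49 ± 0.068 (adjusted p = 2.94e-07, edgeR), to 32.1 to 49.9 CPM (median 38.2). The 2 genes thus had their highest median on Day 10, and their Day 12 groups overlapped those of Day 10.

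The 4 genes that rose from Day 10 to Day 12 were MRPL52, MRPL14, MRPS23 and MRPS9. MRPL52 rose by 0.52 ± 0.17 (adjusted p = 0.00958, edgeR) and MRPL14 by 0.43 ± 0.17 (adjusted p = 0.0265, edgeR). Their highest values were those of embryos d12_f_245 and d12_f_271, at 91.0 and 67.8 CPM for MRPL52 and at 113 and 88.1 CPM for MRPL14. Without these embryos the log2 fold change was 0.12 (adjusted p = 0.146, edgeR) for MRPL52 and 0.09 (adjusted p = 0.462, edgeR) for MRPL14. MRPS23 rose by 0.33 ± 0.11 (adjusted p = 0.00839, edgeR), and by 0.24 without the 2 embryos (adjusted p = 0.0349, edgeR). MRPS9 rose by 0.19 ± 0.078 (adjusted p = 0.0314, edgeR), and without the 2 embryos had 0.12 (adjusted p = 0.122, edgeR). Without embryo d12_f_271 alone, d10_f_454 or d10_m_453, the adjusted p of MRPS9 was 0.0829, 0.0674 and 0.0663 (edgeR). Without embryo d12_f_245 or d12_f_271 alone, that of MRPL14 was 0.106 and 0.0788 (edgeR). MRPS23 and MRPS9 had fallen from Day 8 to Day 10, by 0.51 ± 0.11 (adjusted p = 0.000129, edgeR) and by 0.52 ± 0.078 (adjusted p = 1.64e-06, edgeR).

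Over the whole period from Day 8 to Day 12, 50 of the 77 genes (64.9%) fell and 4 rose at an FDR under 0.05, beside 33.3% of all genes that fell and 40.1% that rose. The comparison shares its Day 8 and Day 12 embryos with the 2 steps above. The median log2 fold change was -0.46 for the members and 0.09 for all genes, and individual values ranged from -1.23 to 0.63. In 27 members (35.1%) every Day 12 embryo was below every Day 8 embryo, beside 16.0% of all genes. Without embryos d12_f_245 and d12_f_271, 67 members fell, the 50 among them, and 2 rose, the median was -0.55, and 41 members (53.2%) did not overlap, where 34.9% of all genes fell, 40.5% rose and 19.0% did not overlap. Male embryos alone gave 64 members that fell and 0 that rose, beside 29.1% and 33.4% of all genes, and female embryos alone 40 and 7, beside 33.0% and 33.9%.

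The 6 members that were DEG were all lower on Day 12 and made up 7.79% of the members, beside 10.4% of all genes that were DEG and fell. MRPL47 (chromosome 13, 117626846 to 117656388 of Sscrofa11.1) had 30.2 to 46.0 CPM on Day 12 (median 36.1), 2.35-fold below Day 8, with a log2 fold change of -1.23 ± 0.089 (adjusted p = 2.05e-13, edgeR). MRPS36 (chromosome 16, 47386412 to 47405342) had 38.8 to 61.5 CPM on Day 12 (median 52.1) and a log2 fold change of -1.20 ± 0.13 (adjusted p = 8.41e-10, edgeR). Both genes had most of their fall before Day 10. MRPL35, a large subunit protein with a bacterial counterpart (chromosome 3, 58559523 to 58575110), had 122 to 147 CPM on Day 8 (median 131), 70.9 to 117 CPM on Day 10 (median 93.0) and 48.5 to 70.3 CPM on Day 12 (median 59.9). The 3 days of MRPL35 did not overlap one another, and its log2 fold change over the whole period was -1.15 ± 0.081 (adjusted p = 1.1e-13, edgeR).

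The other DEG were MRPL36, MRPL42 and MRPS27. MRPL36, a short large subunit protein with a bacterial counterpart (chromosome 16, 79001488 to 79002781), had 37.7 to 68.7 CPM on Day 8 (median 48.6) and 15.9 to 37.5 CPM on Day 12 (median 20.7). Its log2 fold change was -1.12 ± 0.15 (adjusted p = 1.3e-07, edgeR), and -1.36 without embryos d12_f_245 and d12_f_271, which had 37.5 and 37.1 CPM. MRPL42 (chromosome 5, 89631613 to 89661775) had 88.4 to 122 CPM on Day 8 (mean 104) and 40.0 to 71.1 CPM on Day 12 (median 45.8), a log2 fold change of -1.09 ± 0.11 (adjusted p = 3.24e-10, edgeR). MRPS27, an RNA-binding pentatricopeptide repeat protein of the small subunit (chromosome 16, 48509064 to 48642571), had 151 to 187 CPM on Day 8 (median 162) and 71.1 to 89.1 CPM on Day 12 (median 82.6). Its log2 fold change was -1.01 ± 0.081 (adjusted p = 2.12e-12, edgeR). In each of the 6 genes all Day 12 embryos were below all Day 8 embryos.

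The 4 genes higher on Day 12 than on Day 8 were MRPL52 (log2 fold change 0.63 ± 0.17, adjusted p = 0.00164, edgeR), MRPL41 (0.41 ± 0.14, adjusted p = 0.0107, edgeR), MRPS15 (0.39 ± 0.12, adjusted p = 0.00408, edgeR) and MRPL4 (0.22 ± 0.095, adjusted p = 0.0425, edgeR). With embryos d12_f_245 and d12_f_271 left out, MRPL52 rose by 0.23 (adjusted p = 0.00596, edgeR) and MRPS15 by 0.15 (adjusted p = 0.0263, edgeR). Without them MRPL41 and MRPL4 had 0.12 and 0.08 (adjusted p = 0.174 and 0.289, edgeR). In male embryos alone none of the 4 passed the test, with log2 fold changes of 0.10, 0.03, 0.05 and 0.06 in the order above.

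**Figure D2:**
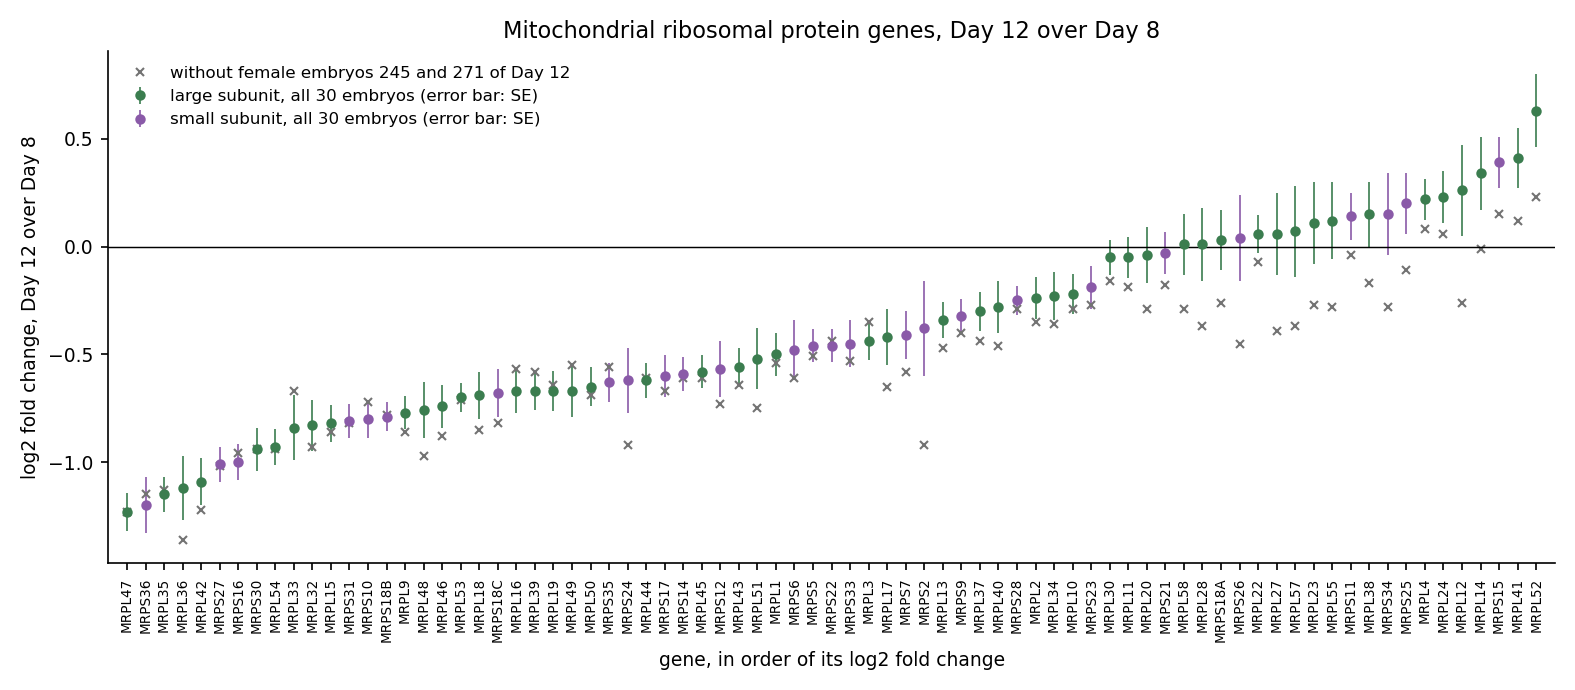
Log2 fold change from Day 8 to Day 12 (y axis) of the 77 genes in order of size (x axis), coloured by subunit, with SE as error bars. Crosses are the values without female embryos d12_f_245 and d12_f_271. The values run from -1.23 for MRPL47 to 0.63 for MRPL52, and the crosses of the genes at the right end lie below their points.

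Genes assigned to either subunit, and genes of either class of protein, were among those that fell between Days 8 and 12. From Day 8 to Day 12, 31 of 50 large subunit genes (62.0%) and 19 of 27 small subunit genes (70.4%) fell, beside 33.3% of all genes. Their median log2 fold changes were -0.43 and -0.46. The 27 small subunit genes include MRPS36, which fell. Of 44 genes counted as having a bacterial counterpart, those with a number in the bacterial series and MRPS24, 27 fell (61.4%, median -0.42). Of the 33 other genes, all with later numbers, 23 fell (69.7%, median -0.56). The other genes include MRPL47, although it is the counterpart of a bacterial large subunit protein.

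Members with known roles beyond the ribosome body showed several patterns. MRPL10, MRPL11 and MRPL12 belong to the stalk, which recruits translation factors, and MRPL12 also binds the mitochondrial RNA polymerase. MRPL10 had medians of 50.2, 39.5 and 43.2 CPM and fell from Day 8 to Day 10 by 0.41 ± 0.091 (adjusted p = 0.000318, edgeR). MRPL11 had medians of 50.9, 51.7 and 46.1 CPM and MRPL12 of 195, 200 and 168 CPM, and neither passed the test in any comparison. MRPL12 had 590 and 472 CPM in embryos d12_f_245 and d12_f_271 and at most 248 CPM in the other Day 12 embryos. Without the 2 embryos MRPL12 fell by 0.26 from Day 8 to Day 12 (adjusted p = 0.0211, edgeR) and MRPL11 by 0.19 (adjusted p = 0.012, edgeR).

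MRPL44, which has a ribonuclease III-like fold, and MRPL45, which lies at the tunnel exit near the inner membrane, fell in both steps. MRPL44 had medians of 59.6, 47.1 and 40.2 CPM and a log2 fold change from Day 8 to Day 12 of -0.62 ± 0.081 (adjusted p = 5.62e-08, edgeR), and MRPL45 medians of 149, 118 and 96.6 CPM and -0.58 ± 0.075 (adjusted p = 4.27e-08, edgeR). MRPL58, a peptidyl-tRNA hydrolase that rescues stalled ribosomes, had medians of 58.4, 66.0 and 50.9 CPM and passed the test in no comparison of days, whereas without the 2 embryos, at 99.5 and 106 CPM, it fell by 0.29 from Day 8 to Day 12 (adjusted p = 0.00117, edgeR). MRPS12, the counterpart of a bacterial protein of the decoding centre, had medians of 91.4, 87.3 and 59.7 CPM. It fell from Day 10 to Day 12 by 0.39 ± 0.13 (adjusted p = 0.00904, edgeR). The RefSeq gene table lists MRPS12 as an lncRNA, the only member that is not listed as protein-coding.

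**Figure D3:**
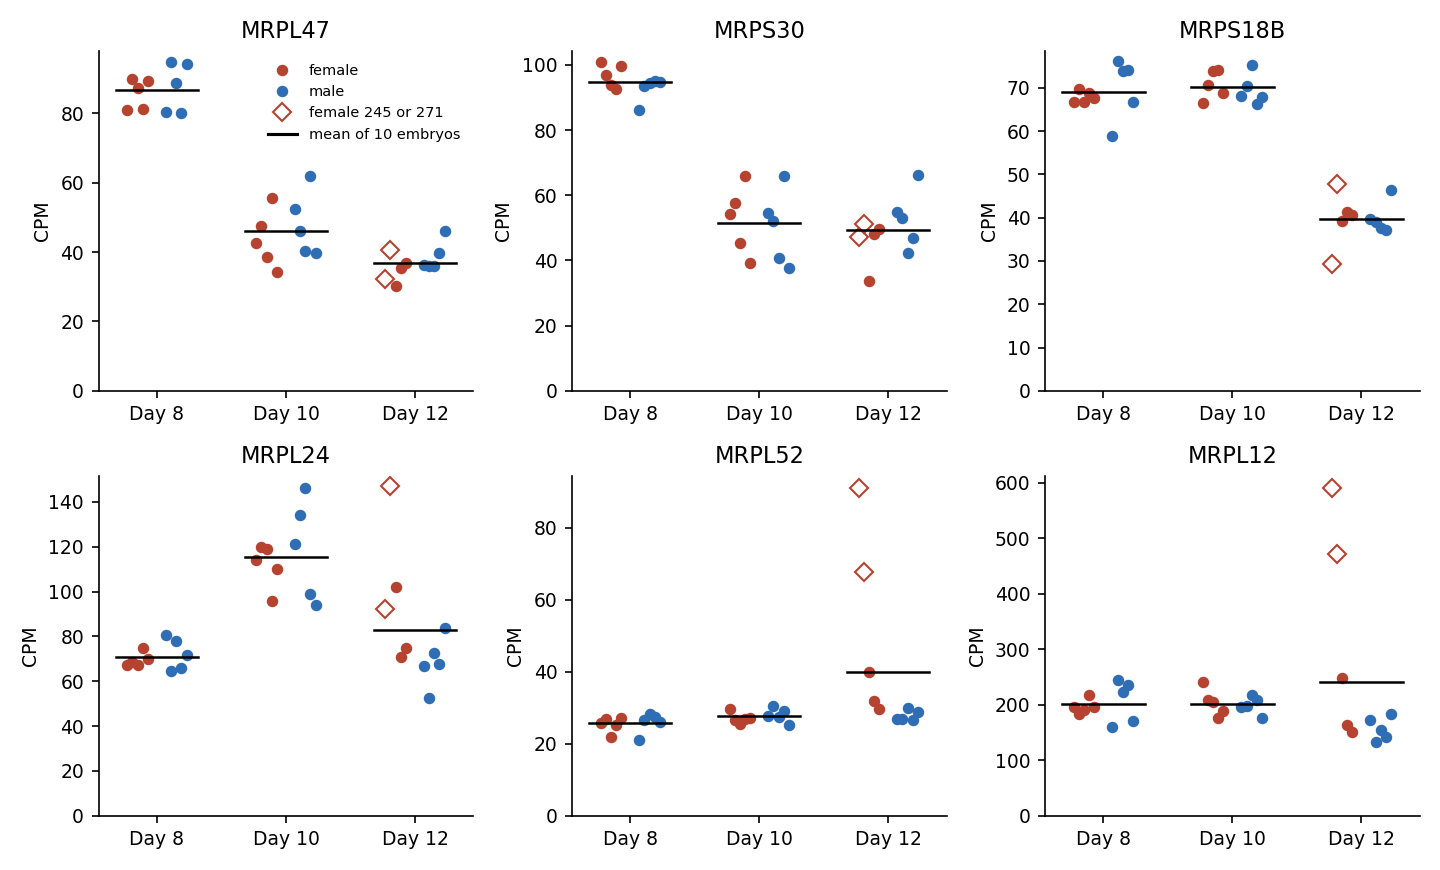
CPM of 6 members in each embryo (y axis) by day (x axis), with points as single embryos, open diamonds as female embryos d12_f_245 and d12_f_271 and lines as means of 10 embryos. MRPL47 and MRPS30 drop between Days 8 and 10, MRPS18B drops between Days 10 and 12, MRPL24 has its highest mean on Day 10, and in MRPL52 and MRPL12 the diamonds are the highest values of Day 12.

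The embryos of one day were most alike on Day 8. The median SD of log2 CPM over the members was 0.128 on Day 8, 0.184 on Day 10 and 0.293 on Day 12, beside 0.227, 0.286 and 0.453 over all genes. When embryos d12_f_245 and d12_f_271 were left out, the Day 12 value was 0.171, beside 0.313 over all genes. MRPL57, MRPS2 and MRPL12 had the largest mean over the 3 days of the SD of log2 CPM. MRPS2 had 44.3 to 65 CPM on Day 8 (median 54.1) and 23.8 to 35.8 CPM on Day 10 (median 31.6), a fall of 0.81 ± 0.22 on the log2 scale (adjusted p = 0.00229, edgeR). On Day 12 it had 116 and 76.3 CPM in embryos d12_f_245 and d12_f_271 and 21 to 39.2 CPM in the others. Over the whole period MRPS2 had a log2 fold change of -0.38 ± 0.22 (adjusted p = 0.12, edgeR), and without the 2 embryos it fell by 0.92 (adjusted p = 3.44e-09, edgeR). MRPL57 had 12.1 to 28.0 CPM on Day 8, 14.6 to 28.3 CPM on Day 10 and, on Day 12, 44.6 and 38.6 CPM in embryos d12_f_245 and d12_f_271 and 12.8 to 16.8 CPM in the others. MRPL57 passed the test in no comparison of days, and without the 2 embryos it fell by 0.37 from Day 8 to Day 12 (adjusted p = 0.0152, edgeR).

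No member differed between female and male embryos at an FDR under 0.05 on Day 8, 10 or 12 (edgeR quasi-likelihood test in the table of each day), where 0.658%, 0.223% and 0.123% of all genes did. At an unadjusted p under 0.05 there were 0, 1 and 23 members. DESeq2 called 0, 0 and 1, MRPL38 on Day 12 (adjusted p = 0.0467), beside 1.13%, 0.454% and 1.37% of all genes on the 3 days. A single fit of all 30 embryos, which shares one estimate of the spread over the days, called 0, 0 and 25 (edgeR), 22 of them higher in females. Of all genes this fit called 0.275% on Day 8 and 0.214% on Day 10. On Day 12 it called 9.44% of all genes higher and 10.8% lower in females. The Day 8 members with the smallest p were MRPS28 (female over male log2 fold change -0.11 ± 0.074) and MRPS11 (-0.12 ± 0.083), both with an adjusted p of 0.999 (edgeR). On Day 10 they were MRPL22 and MRPL33. MRPL22 had 35.7 ± 1.82 CPM in females and 42.5 ± 3.78 CPM in males (SD, n = 5) with all females below all males, a log2 fold change of -0.25 ± 0.085, and an adjusted p of 1 in the edgeR test. MRPL33 had -0.17 ± 0.084.

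On Day 12, 58 of the 77 genes had a higher fitted level in females, with a median log2 fold change of 0.27 beside 0.00 for all genes. In either direction, 23 of the 77 members were at an unadjusted p under 0.05, beside 22.7% of all genes. Of these 23 members, 21 were higher in females, a split that was not computed for all genes. The smallest adjusted p was 0.198 (edgeR). MRPL38 had 243 and 214 CPM in female embryos d12_f_245 and d12_f_271, 104 to 132 CPM in the other 3 females and 76.4 to 100 CPM in the males, in the table of Day 12. MRPL23 had 81.8 and 74.3 CPM in these 2 females, 28.2 to 46.0 CPM in the other 3 and 21.9 to 27.2 CPM in the males. In that table all females were above all males in both genes and in MRPL52 and MRPS11. The share of all genes with such a separation was not computed. In the CPM of all 30 embryos the sexes overlapped in MRPL52 (lowest female 29.7, highest male 29.8) and in MRPS11 (60.3 and 61.1). The log2 fold changes were 0.90 ± 0.25 for MRPL38 and 1.02 ± 0.30 for MRPL23 (adjusted p = 0.198 for both, edgeR). Without embryos d12_f_245 and d12_f_271 they were 0.41 and 0.43 (adjusted p = 0.627 for both, edgeR), 39 of the 77 genes had a higher fitted level in females, the median was 0.01, and 6 members (7.79%) were left at an unadjusted p under 0.05, near the 7.25% of all genes.

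MRPL33, the counterpart of a short bacterial large subunit protein, went the other way. It had 11.2 and 8.67 CPM in embryos d12_f_245 and d12_f_271, 12.7 to 22.8 CPM in the other females and 23.2 to 26.4 CPM in the males of Day 12. All females were below all males, with a log2 fold change of -0.72 ± 0.24 (adjusted p = 0.198, edgeR) and of -0.44 without the 2 embryos (adjusted p = 0.627, edgeR). The test of whether the change between days differed between the sexes called 0 members in each of the 3 comparisons (edgeR). At an unadjusted p under 0.05 it gave 0 members for Days 8 and 10, 28 for Days 10 and 12 and 28 for Days 8 and 12, beside 0.763%, 18.9% and 21.8% of all genes. Without embryos d12_f_245 and d12_f_271 there were 1, 8 and 6, beside 1.17%, 5.21% and 7.69% of all genes. DESeq2 called 0, 0 and 8 members at an FDR under 0.05, the 8 being MRPL12, MRPL14, MRPL27, MRPL38, MRPL52, MRPL58, MRPS11 and MRPS2, beside 2.18% of all genes in that comparison.

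**Figure D4:**
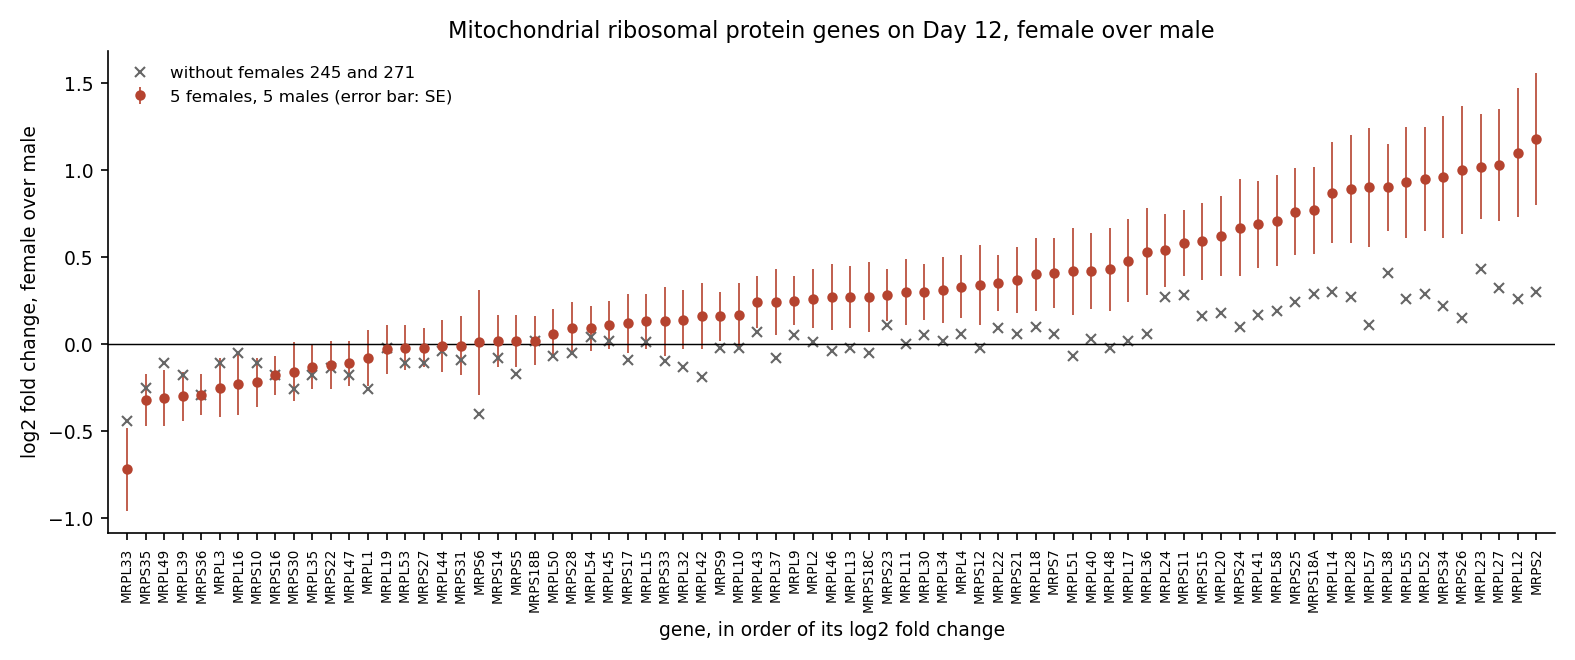
Female over male log2 fold change on Day 12 (y axis) of the 77 genes in order of size (x axis), with SE as error bars, for 5 females and 5 males. Crosses are the values without female embryos d12_f_245 and d12_f_271 and lie nearer to 0 at both ends of the order, with 39 of 77 above 0 in place of 58.

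Genes that work with the mitochondrial ribosome were described from other lists by counts and medians, without a test of the list. Of all genes, 26.7% fell and 29.4% rose from Day 8 to Day 10. From Day 10 to Day 12 these shares were 27.1% and 32.6%, and from Day 8 to Day 12 33.3% and 40.1%. When embryos d12_f_245 and d12_f_271 were left out, the counts that fell from Day 8 to Day 12 were 6 of 6 other subunits, 12 of 15 translation factors, 17 of 26 assembly factors and 7 of 9 regulators. In that setting 34.9% of all genes fell. With all embryos, of 6 ribosome subunits under other names, 4 fell and 0 rose from Day 8 to Day 12 (median log2 fold change -0.43). PTCD3, a pentatricopeptide repeat protein of the small subunit, had 212 to 255 CPM on Day 8 (median 230), 99.4 to 176 CPM on Day 10 (median 159) and 87.7 to 162 CPM on Day 12 (median 123), a log2 fold change of -0.92 ± 0.10 from Day 8 to Day 12 (adjusted p = 2.02e-09, edgeR). DAP3, a GTP-binding protein of the small subunit, had medians of 88.2, 76.2 and 64.5 CPM and fell by 0.44 ± 0.065 (adjusted p = 4.27e-07, edgeR). OXA1L, which inserts newly made proteins into the inner membrane, had 149 to 192 CPM on Day 8 and 99.0 to 131 CPM on Day 12 and fell by 0.54 ± 0.061 (adjusted p = 2.93e-09, edgeR).

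Of 15 mitochondrial translation factors, 13 fell and 0 rose from Day 8 to Day 12, with a median of -0.70. TSFM, the exchange factor of the elongation factor TUFM, had 91.4 CPM or more on Day 8 (median 99.9), 45.9 to 83.0 CPM on Day 10 (median 63.5) and 31.4 to 52.5 CPM on Day 12 (median 41.2), without overlap of any 2 days but Days 10 and 12, and a log2 fold change of -1.29 ± 0.091 (adjusted p = 1.18e-13, edgeR). TUFM itself had medians of 322, 291 and 238 CPM and fell by 0.37 ± 0.093 (adjusted p = 0.000797, edgeR). MTFMT, which formylates the initiator methionyl-tRNA, had medians of 22, 24.5 and 13.3 CPM and fell by 0.72 ± 0.087 (adjusted p = 1.34e-08, edgeR). SLIRP and TACO1 did not pass the test (adjusted p = 0.0658 and 0.892, edgeR).

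Of 26 factors of ribosome assembly and rRNA processing, 15 fell and 2 rose (median -0.49). FASTKD2, an RNA-binding protein needed for the large rRNA, fell by 1.34 ± 0.097 (adjusted p = 2.08e-13, edgeR), from a median of 64.1 CPM on Day 8 to 25.7 CPM on Day 12. The 2 that rose were METTL17 (0.51 ± 0.085, adjusted p = 3.14e-06, edgeR) and MPV17L2 (0.62 ± 0.21, adjusted p = 0.009, edgeR), and MPV17L2 had 0.39 without embryos d12_f_245 and d12_f_271 (adjusted p = 0.078, edgeR).

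Of 9 genes of mitochondrial DNA replication and transcription, 8 fell and 1 rose from Day 8 to Day 10, with a median of -0.78. From Day 10 to Day 12, 2 fell and 0 rose, with a median of -0.09. The share that fell in this second step was 22.2%, beside 27.1% of all genes. TFAM, which packages mitochondrial DNA and starts its transcription, had 159 to 224 CPM on Day 8 (median 178), 49.9 to 117 CPM on Day 10 (median 76.8) and 21 to 78.6 CPM on Day 12 (median 55.2). Its log2 fold change was -1.18 from Day 8 to Day 10 (adjusted p = 1.74e-06, edgeR) and -1.84 ± 0.18 from Day 8 to Day 12 (adjusted p = 1.64e-10, edgeR). TWNK, the replicative helicase, had medians of 66.8, 27.8 and 28.7 CPM, and POLG, the catalytic subunit of the mitochondrial DNA polymerase, of 73.9, 40.7 and 44.1 CPM. Of 9 regulators of nuclear genes for mitochondria, 8 fell and 0 rose from Day 8 to Day 12 (median -0.30). GABPA, an ETS factor that binds promoters of such genes, had 140 to 167 CPM on Day 8 (median 159), 117 to 162 CPM on Day 10 (median 139) and 32.7 to 73.6 CPM on Day 12 (median 50.6), a fall of 1.60 ± 0.10 on the log2 scale (adjusted p = 6.9e-15, edgeR).

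The cytosolic ribosome and the respiratory chain gave other counts. Of 78 cytosolic ribosomal protein genes, 33 rose and 0 fell from Day 8 to Day 10, with a median of 0.24, and 53 rose and 0 fell from Day 8 to Day 12, with a median of 0.34. By library size alone the first count was 5 that rose and 4 that fell, with a median of 0.06, beside 21.3% and 36.8% of all genes. From Day 10 to Day 12, 5 rose (6.41%, beside 32.6% of all genes) and 0 fell (median 0.12). Without embryos d12_f_245 and d12_f_271 this turned to 1 that rose and 23 that fell (median -0.11), beside 33.4% and 29.4% of all genes. In male embryos alone 0 rose and 25 fell (median -0.18), beside 25.9% and 21.5% of all genes. In female embryos alone 9 rose and 0 fell (median 0.31), beside 24.5% and 27.1% of all genes. Without the 2 embryos 34 rose and 6 fell from Day 8 to Day 12, with a median of 0.145, beside 40.5% and 34.9% of all genes. In males alone 7 rose and 4 fell, with a median of 0.05, beside 33.4% and 29.1% of all genes. In females alone 58 rose and 0 fell, with a median of 0.51, beside 33.9% and 33.0% of all genes.

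Of 67 nuclear subunits of oxidative phosphorylation, 39 rose and 3 fell from Day 8 to Day 10, with a median of 0.30, and 2 rose and 41 fell from Day 10 to Day 12, with a median of -0.35. By library size alone 19 rose and 9 fell in the first step (median 0.12), beside 21.3% and 36.8% of all genes. In the second step 7 rose and 26 fell by that scaling (median -0.15), beside 43.8% and 17.5% of all genes. From Day 8 to Day 12, 18 rose (26.9%) and 23 fell (34.3%), with a median of -0.08, beside 40.1% and 33.3% of all genes. The share that fell was thus near that of all genes. Without embryos d12_f_245 and d12_f_271, 11 rose and 36 fell (median -0.22), beside 40.5% and 34.9% of all genes. In the first step the medians of the mitochondrial ribosomal proteins and of these subunits, which include those that assemble with the products of the mitochondrial ribosome, were thus -0.26 and 0.30 in the same embryos. Genes of mitochondrial DNA were not analysed here.

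**Figure D5:**
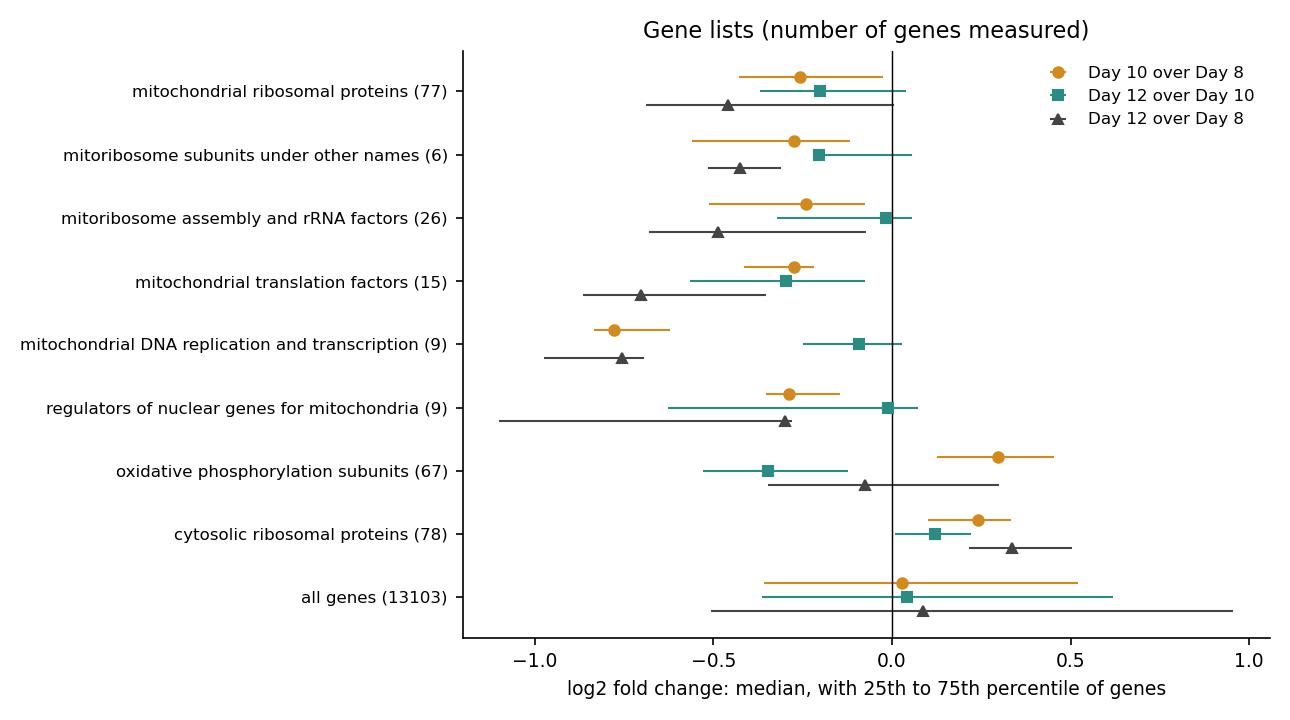
Median log2 fold change (symbols) with the 25th to 75th percentile of genes (bars) of each gene list (y axis, with the number of genes measured) in the 3 comparisons of days. The bars are spreads over genes and not errors. The mitochondrial ribosomal proteins have medians of -0.26, -0.20 and -0.46, the oxidative phosphorylation subunits of 0.30, -0.35 and -0.08, and the cytosolic ribosomal proteins of 0.24, 0.12 and 0.34.

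The members lay on 17 chromosomes, none on the X chromosome, and 2, MRPL41 and MRPS2, had no placed chromosome. Of the 75 placed members, 25 overlapped another annotated gene, among them MRPL47 with ACTL6A, MRPS27 with PTCD2, MRPS30 with LOC102160325, MRPS18B with PPP1R10 and MRPL43 with TWNK. The library kit keeps the strand, but whether strand was used in counting is not given in the sources used here, so that counts of overlapping genes are uncertain where their exons meet.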

How the data were processed

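RNA of 30 single pig embryos was sequenced from stranded mRNA libraries. The authors trimmed the reads, mapped them to Sscrofa11.1 with its NCBI annotation in Galaxy and filtered genes by CPM. Deposited were raw counts of reads for each NCBI gene ID, in one table of all embryos and one per day. The aligner, the counting tool and the value of the filter are not given in the sources used here.

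IDs were matched to symbols in the RefSeq gene table of Sscrofa11.1, and all 13103 matched. Days were compared in one fit of 3 day groups, and sexes in the table of their day, with the edgeR 4.0.16 quasi-likelihood F test in R 4.3.3, with TMM factors, robust dispersion and Benjamini-Hochberg adjustment over all genes of the table. Sex by day interactions were contrasts of 6 groups fitted together. The SE is the log2 fold change over the square root of F. CPM used TMM factors, and log2 CPM a prior count of 2. DESeq2 1.42.0, the robust GLM of edgeR, other scalings, a filter of 10 counts in 5 embryos, single sexes and each embryo left out were alternatives. The scripts were tested on simulated counts. Tables and figures used Python 3.11.15, pandas 2.3.3, numpy 2.4.6 and matplotlib 3.10.9. Depth was 6068212 to 34002508 counts per embryo, which puts 3 counts at no more than 0.434 CPM.

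The members and lists were chosen with earlier results of these data known, so their directions are no independent evidence. Genes named one by one were all DEG, the 4 largest rises and falls of each comparison of days, 13 genes of known role or copy, the 2 smallest p between sexes per day and the 3 widest spreads, with the listed partners that had the clearest known roles picked after their values were seen. Embryos d12_f_245 and d12_f_271 were left out as an alternative chosen after seeing the data. No coding lengths were at hand, so levels of different genes were not compared.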

Additional observations from a re-analysis of the deposited data

Results flagged for a closer look

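In 5 of 108 groups of 10 embryos examined, the highest embryo stood apart from the others of its day. Chance flags about 1 in 20 groups, so the number of flags was near that rate. All 5 were on Day 12 and were female embryo d12_f_271. MRPL11 had 80.5 CPM in it, beside 37.3 to 55.4 CPM in the other 9 embryos. MRPL24 had 147 CPM, beside 52.6 to 102 CPM. MRPL4 had 153 CPM, beside a median of 88.7 CPM over the day. MRPS23 had 70.6 CPM, beside 37.5 to 51.2 CPM, and MRPS9 had 88.1 CPM, beside 56.2 to 69.9 CPM. In genes where embryo d12_f_245 was also high, such as MRPL12, a check of a single highest embryo finds none. The cause was not tested.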

How the results depend on the processing

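No paired analysis was possible because the gilt of each embryo was not given and embryo numbers are not shared between groups. Counts of members that fell between days stayed within 1.5 times under every alternative but library size alone (13 for Days 10 and 12) and female embryos alone (23 for Days 10 and 12). Counts that rose were small and less stable. For Days 8 and 10 they were 1 by library size alone and 1 in females alone. For Days 10 and 12 they were 16 by library size alone, 1 by the robust GLM, 2 with only these days in the fit, 7 in females alone, 0 in males alone and 1 without embryos d12_f_245 and d12_f_271. For Days 8 and 12 they were 2 by the robust GLM, 7 in females alone, 0 in males alone and 2 without embryos d12_f_245 and d12_f_271. Of all 13103 genes, the robust GLM called 4340 higher for Days 10 and 12 and 5236 for Days 8 and 12. The fit of only Days 10 and 12 called 3834 higher, and females alone gave 2563 for Days 8 and 10. DEG for Days 8 and 10 were 3 by library size alone, 1 by the robust GLM and 1 in females alone, and for Days 10 and 12 there was 1 in females alone. Over all genes, in either direction, the same settings gave 1838, 2222 and 977 DEG for Days 8 and 10 and 2327 for Days 10 and 12. Between sexes on Day 12, DESeq2 called 1 member and one fit of all 30 embryos 25, of which 22 were higher in females. The interaction for Days 8 and 12 had 8 members by DESeq2. The cause of these differences was not tested.

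Leaving out each embryo in turn gave 37 to 40 members that fell and 3 to 4 that rose for Days 8 and 10, with 0 to 1 DEG (1 without d10_f_433 or d10_m_435). It gave 33 to 38 and 2 to 8 for Days 10 and 12 with 0 DEG, the 2 without d12_f_271 and the 8 without d12_m_275, and 47 to 54 and 3 to 6 for Days 8 and 12 with 5 to 8 DEG. Of all 13103 genes, these fits called 3334 to 3702 lower and 3643 to 4042 higher for Days 8 and 10. For Days 10 and 12 the counts were 3428 to 3627 and 4134 to 4298, and for Days 8 and 12 4253 to 4432 and 5170 to 5271. All-gene DEG in either direction were 1669 to 1939, 2963 to 3083 and 4147 to 4348. Between sexes, leaving out each embryo gave 0 members on each day. Of 59 called values of named members, none changed sign under the other scalings, tests and filter. By library size alone 9 were no longer called, by the robust GLM 5 and without embryos d12_f_245 and d12_f_271 also 5. Beside MRPL14 and MRPS9, the calls of MRPL4 and MRPL10 for Days 8 and 12 were lost without single embryos, 9 embryos for MRPL4 (adjusted p 0.0546 to 0.145, edgeR) and 6 for MRPL10 (adjusted p 0.054 to 0.0728, edgeR). A prior count of 0.5 gave a median SD of 0.128, 0.185 and 0.293 on Days 8, 10 and 12.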
